A study of Homo sapiens with 12 samples.

Results

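A set of 10 genes that are commonly read as marks of epithelial or mesenchymal cell state were followed in the deposited counts: CDH1, EPCAM, TJP1, FERMT1, VIM, CDH2, FN1, ZEB1, SNAI1 and SNAI2. They were matched to the count table by gene symbol, and each symbol matched 1 row, so that the set held 10 of the 58233 genes of the table. Of these, 9 passed the filter on low counts and were among the 16657 genes tested. CDH2 did not, with 0 counts in all 12 libraries.

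The libraries were bulk RNA-seq of HCT116 cells, a human colorectal carcinoma line, carrying OsTIR1, the plant F-box protein that targets auxin-inducible degrons, at the AAVS1 locus under a tetracycline-inducible promoter. The parental line carried OsTIR1 only. The SDS22-degron line, grown from single colonies after genome editing, additionally had both alleles of PPP1R7, the gene for the PP1 partner SDS22, fused to mAID and mClover, so that doxycycline (Dox) and indole-3-acetic acid (IAA) start degradation of the SDS22 protein. Each line was either left untreated or given 2 µg/ml Dox with 500 µM IAA for 48 h, with 3 replicates in each of the 4 groups. The labels call the replicates biological and do not say what separated them (cultures, days or passages), so the p-values measure the spread between these libraries, which is that of repeats of 1 line each.

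Epithelial cells hold to each other through adherens junctions built on E-cadherin and through tight junctions that seal the space between them. In the epithelial-mesenchymal transition, transcriptional repressors of the SNAI and ZEB families bind E-box sequences in the CDH1 promoter, E-cadherin is lost, and N-cadherin, vimentin and fibronectin are gained. Carcinoma lines often hold some marks of both states.

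Total counts were 12133915 to 14657508 per library, and levels below are CPM, counts scaled to library size after TMM normalization. PPP1R7 itself lay between 40.1 and 51.1 CPM in the 12 libraries and passed the test in none of the comparisons, a check that bears on its mRNA and not on the SDS22 protein. Of 9 markers of colorectal epithelium 7 exceeded 1 CPM, with VIL1 at or near 0 and CDX1 at 0 throughout. Of 9 fibroblast markers only COL1A1 did, with 5 at 0 throughout (COL1A2, DCN, LUM, PDGFRA and THY1). None of 7 leukocyte and none of 5 endothelial markers averaged above 1 CPM over the libraries. In bulk RNA, fewer cells of a type and less RNA per cell cannot be told apart.

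Dox/IAA treatment of SDS22-degron cells changed 7 of the 9 tested genes (Benjamini-Hochberg adjusted p below 0.05 in edgeR's quasi-likelihood F test, over all 16657 genes). The same call was made for 51.5% of all genes tested, so that a call by itself does not set these genes apart. CDH1, TJP1 and FN1 rose, and FERMT1, VIM, ZEB1 and SNAI1 fell, while EPCAM stayed within its replicate spread. E-cadherin mRNA thus rose 2.00-fold and vimentin mRNA fell to the lowest level of the 4 groups, while fibronectin mRNA, a mesenchymal mark, rose 1.98-fold. The libraries of the 2 groups did not overlap for 8 of the 9 genes, against 59.9% of all genes tested. Of the 9, 2 (FERMT1 and VIM) passed the study's own cut-off of an unadjusted p below 0.05 with an absolute log2 fold change above 1, as did 7.83% of all genes. By that cut-off 2 passed between treated lines (6.63% of all genes), 1 between untreated lines (4.14%) and 1 with Dox/IAA in parental cells (3.14%).

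The same treatment of parental cells, which measures what Dox, IAA and OsTIR1 do without the degron, changed 5 of the 9 genes against a background of 31.6% (15.9% higher and 15.7% lower). CDH1, TJP1, FN1 and SNAI2 rose and FERMT1 fell. Between the treated lines 6 genes differed, against 44.9% of all genes (21.8% higher and 23.1% lower): CDH1, FN1 and SNAI2 were higher in SDS22-degron cells, and FERMT1, VIM and ZEB1 were lower. Between the untreated lines 5 genes differed, against 28.2%: FN1 and SNAI2 were higher in SDS22-degron cells, and TJP1, FERMT1 and VIM were lower, before any Dox/IAA was given. Groups did not overlap for 4 genes with Dox/IAA in parental cells (41.3% of all genes), 7 between treated lines (52.9%) and 5 between untreated lines (43.5%). The 4 comparisons share their groups of libraries in pairs and are therefore not independent of each other.

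Whether the response to Dox/IAA differed between the lines was tested as the interaction, the log2 fold change in SDS22-degron cells minus that in parental cells. It was called for 3 of the 9 genes, against 14.4% of all genes (6.03% higher and 8.35% lower): CDH1 was higher by 0.64, and FERMT1 and SNAI1 were lower, by -0.33 and -0.67 on the log2 scale. This count moved with single libraries, from 0 when replicate 1 or replicate 3 of untreated SDS22-degron cells was left out (edgeR, with 5 and 6 genes at an unadjusted p below 0.05) to 5 without replicate 2 of untreated parental cells, and it was 4 in DESeq2. Fitted with the replicate number as a block, 6 genes were called. The shares of all genes called by DESeq2 and with the block are not given here, so these counts do not set the members apart. By the cut-off of the study 1 gene passed, VIM, as did 3.60% of all genes.

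**Figure D1:**
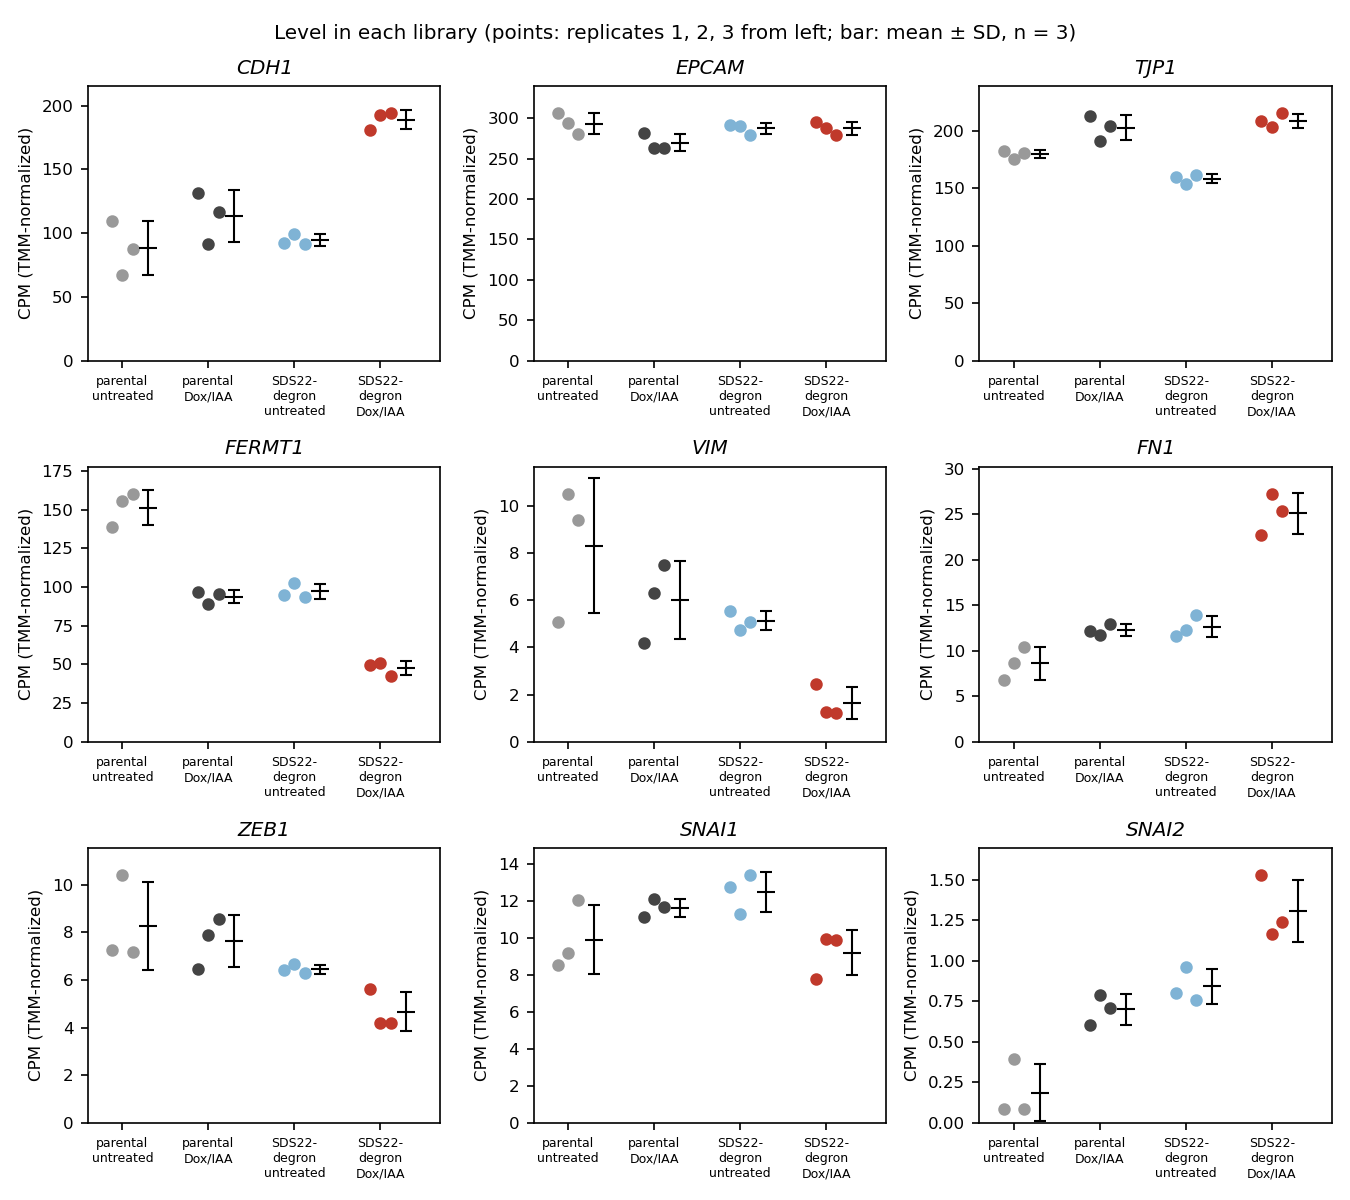
Level of the 9 detected genes in each of the 12 libraries, in CPM on a linear axis from 0 for each gene, with a point for each library and a bar for the group mean ± SD (n = 3). Dox/IAA-treated SDS22-degron libraries (red) are the highest of all 12 for CDH1 (180.6 to 193.8 CPM) and FN1 (22.7 to 27.2 CPM) and the lowest for FERMT1 and VIM, while EPCAM stays between 262.8 and 305.8 CPM in all groups.

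CDH1 encodes E-cadherin, the calcium-dependent adhesion receptor of epithelial adherens junctions (chr16:68737225-68835548, plus strand, GRCh38, all gene positions as in the deposited table). In untreated parental cells it stood at 109.7, 67.0 and 87.8 CPM in replicates 1 to 3, and in treated parental cells at 131.8, 91.6 and 116.7 CPM. Untreated SDS22-degron libraries held 92.6, 99.6 and 91.3 CPM, and treated ones 180.6, 192.7 and 193.8 CPM. Every treated SDS22-degron library lay above all 9 others, whereas the remaining 3 groups overlapped each other. Replicate 2 of the untreated parental group was the lowest of all.

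Dox/IAA raised CDH1 in SDS22-degron cells by a log2 fold change of 1.00 (SE 0.132, edgeR adjusted p = 4.94e-06), and the treated lines differed by 0.74 (SE 0.131, adjusted p = 0.000165). The untreated lines did not differ beyond their spread (0.10, 95% CI -0.18 to 0.38, adjusted p = 0.618). In parental cells the rise was 0.36 (SE 0.134, edgeR adjusted p = 0.0450), just inside the threshold, and lay in the same direction in each of the 3 pairs of libraries that share a replicate number. With that number as a block the adjusted p was 0.0176, and with only the parental groups in the fit 0.106. It was not called when any of 4 libraries was left out: the adjusted p was 0.206 without untreated replicate 2, where the rise was 0.20, 0.0826 without untreated replicate 3, 0.218 without treated replicate 1, where the rise was 0.24, and 0.115 without treated replicate 3. The larger response in SDS22-degron cells (interaction 0.64, SE 0.187, edgeR adjusted p = 0.0290) kept its sign without each library in turn, between 0.44 and 0.78, but missed the threshold without 7 of the 12, with adjusted p of 0.0536 to 0.0901. These were untreated parental replicates 1 and 3, treated parental replicate 2, untreated SDS22-degron replicates 1 and 3, and treated SDS22-degron replicates 2 and 3. With the replicate number as a block the interaction was called (edgeR adjusted p = 0.00937). The 9 epithelial markers include CDH1 and EPCAM, so that their sum is not independent of CDH1, and most of the sum is keratin counts. They summed to 3534 to 3935 CPM in untreated and 2680 to 3169 CPM in treated parental cells. In SDS22-degron cells the sum was 3444 to 4247 CPM untreated and 3356 to 3846 CPM treated. The part of these markers in the results on CDH1 was not tested.

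EPCAM, an epithelial cell adhesion molecule (chr2:47345158-47387601, plus strand), was the most abundant of the 10 genes per gene length, at 104.3 to 121.4 RPKM. RPKM is here CPM per kilobase of the deposited gene length, a length per gene and not per transcript. In untreated parental cells it measured 305.8, 293.6 and 280.7 CPM, and in treated parental cells 281.5, 262.8 and 263.7 CPM. In SDS22-degron cells it measured 291.9, 290.9 and 279.3 CPM untreated and 295.1, 288.0 and 278.7 CPM treated. The groups overlapped in every comparison. The log2 fold change with Dox/IAA in SDS22-degron cells was -0.00048 with a 95% CI of -0.13 to 0.12. No comparison was called for EPCAM, and the widest difference was -0.12 with Dox/IAA in parental cells (edgeR adjusted p = 0.126).

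TJP1 encodes ZO-1, the scaffold that ties tight junction proteins to actin (chr15:29699367-29968865, minus strand). Parental cells held 182.8, 175.7 and 180.4 CPM untreated and 212.6, 191.2 and 204.1 CPM treated. SDS22-degron cells held 159.8, 154.0 and 161.2 CPM untreated and 208.3, 203.0 and 215.1 CPM treated. Treated libraries of both lines lay above all untreated ones, the untreated SDS22-degron libraries were the 3 lowest of the 12, and the treated lines overlapped.

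The rise with Dox/IAA in SDS22-degron cells was 0.40 (SE 0.0596, edgeR adjusted p = 1.99e-05). The smaller rise in parental cells, 0.17 (SE 0.0595, adjusted p = 0.0326), was not called when untreated replicate 1, 2 or 3 or treated replicate 1 or 3 was left out, with adjusted p up to 0.139. The untreated lines differed by -0.18 (SE 0.0597, adjusted p = 0.0288), which missed the threshold when any single library of the 6 compared was left out (0.0522 to 0.149). Between the treated lines the difference was 0.04 (95% CI -0.08 to 0.17). The interaction was 0.23 and was not called (edgeR adjusted p = 0.0823, and 0.0444 with the replicate block). The pseudogene HMGN2P5 lies within TJP1 on the opposite strand with 2981 counts, equal to 10.3% of the counts of TJP1.

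FERMT1 encodes kindlin-1, the kindlin of epithelial cells, which binds integrin tails and helps to activate integrins (chr20:6074845-6123544, minus strand). Untreated parental cells held 138.4, 155.5 and 159.8 CPM, and treated ones 96.6, 89.2 and 95.5 CPM. Untreated SDS22-degron cells held 94.8, 102.8 and 93.8 CPM, a level that overlapped treated parental cells, and treated ones 49.7, 51.0 and 42.7 CPM. The treated SDS22-degron libraries were the lowest and the untreated parental libraries the highest of the 12.

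FERMT1 was the lower in all 4 comparisons. The log2 fold change with Dox/IAA was -1.02 in SDS22-degron cells (SE 0.0793, edgeR adjusted p = 1.15e-08) and -0.69 in parental cells (SE 0.0758, adjusted p = 4.03e-06). The SDS22-degron line differed from the parental line by -0.97 when treated (adjusted p = 3.16e-08) and by -0.64 when untreated (adjusted p = 6.12e-06). These 4 calls held under each alternative and without each library in turn. The interaction of -0.33 (SE 0.109, adjusted p = 0.0484) was close to the threshold and missed it without 8 libraries, untreated parental replicate 1, treated parental replicates 1 and 3, all 3 untreated SDS22-degron replicates and treated SDS22-degron replicates 1 and 3, with adjusted p of 0.0514 to 0.120 and values of -0.27 to -0.37. The adjusted p was 0.0557 with the size factors of DESeq2 and 0.0333 with the replicate block.

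**Figure D2:**
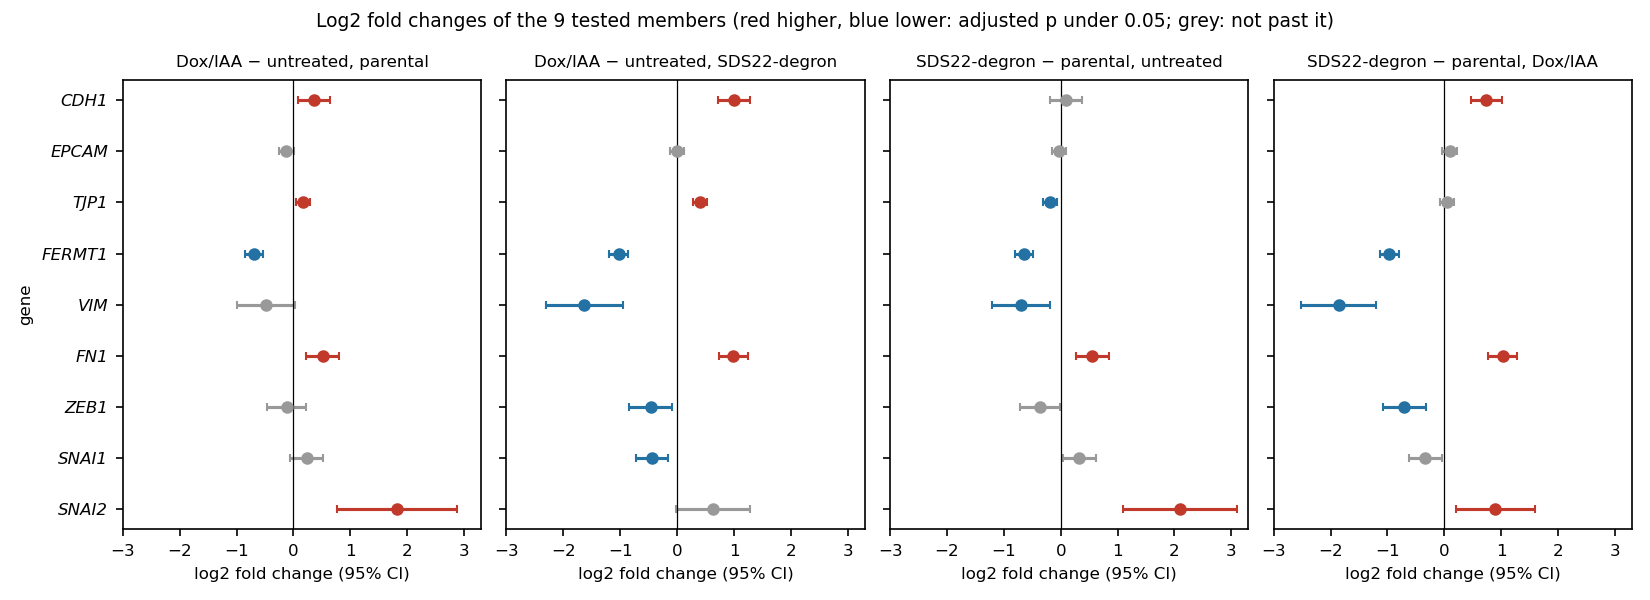
Log2 fold changes with 95% confidence intervals from edgeR for the 9 tested genes, in a panel for each comparison (Dox/IAA minus untreated in each line, SDS22-degron minus parental in each condition), in red where called higher, blue where called lower and grey otherwise. FERMT1 lies left of 0 in all 4 panels (-0.64 to -1.02), FN1 right of 0 in all 4 (0.51 to 1.03), and CDH1 is at 1.00 with Dox/IAA in SDS22-degron cells against 0.36 in parental cells.

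VIM encodes vimentin, the intermediate filament protein of mesenchymal cells (chr10:17228259-17237593, plus strand). It was low in every library, so that counting error is large: 60 to 134 counts in untreated parental libraries and 32, 16 and 15 counts in treated SDS22-degron libraries. Untreated parental cells held 5.06, 10.5 and 9.39 CPM, and treated ones 4.20, 6.32 and 7.47 CPM. Untreated SDS22-degron cells held 5.54, 4.75 and 5.09 CPM, and treated ones 2.44, 1.24 and 1.24 CPM. The 3 treated SDS22-degron libraries were below all others, and the other 3 groups overlapped.

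VIM fell with Dox/IAA in SDS22-degron cells by a log2 fold change of -1.63 (SE 0.319, edgeR adjusted p = 0.000326), a 3.09-fold drop, and was lower, by a log2 fold change of -1.85 (SE 0.314, adjusted p = 0.000105), than in treated parental cells. In parental cells the value was -0.48 (95% CI -0.98 to 0.02, adjusted p = 0.140), and without untreated replicate 1 it was -0.74 (adjusted p = 0.0159). VIM was lower in the treated library of each of the 3 parental pairs that share a replicate number, and was not called with that number as a block (-0.47, edgeR adjusted p = 0.109). The difference between untreated lines, -0.70 (SE 0.243, adjusted p = 0.0374), was not called without untreated parental replicate 2 (-0.48, adjusted p = 0.195), untreated parental replicate 3, or any single untreated SDS22-degron replicate, with adjusted p of 0.0744 to 0.135 for these. The interaction was -1.15 (95% CI -2.0 to -0.30, edgeR adjusted p = 0.0664) and lay on either side of the threshold by setting. Its adjusted p was 0.0324 in DESeq2, 0.0250 with the likelihood ratio test, 0.000665 without the filter and 0.0435 with the replicate block. It was 0.0259 without untreated parental replicate 2, 0.0260 without treated parental replicate 1 and 0.0289 without treated SDS22-degron replicate 1.

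The antisense gene VIM-AS1 overlaps VIM on the other strand, and whether counting used strand is not given in the sources used here, so reads of the pair cannot be fully told apart. It held 175 counts over the 12 libraries, 21.5% of those of VIM. Its sum over the 3 libraries of a group was 88 counts in untreated and 30 in treated parental cells, and 50 in untreated and 7 in treated SDS22-degron cells. The ratio of treated to untreated SDS22-degron cells, corrected for library size, was 0.152 with an exact 95% interval of 0.0581 to 0.337, and in parental cells 0.324 (0.207 to 0.495), intervals that cover counting error only.

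CDH2, which encodes N-cadherin, the cadherin that replaces E-cadherin in many mesenchymal cells (chr18:27950966-28177446, minus strand), had 0 counts in all 12 libraries. By the count of 3 that a count of 0 allows, its level was below 0.206 to 0.253 CPM, depending on the library. N-cadherin mRNA was thus not detectable at this depth, with or without Dox/IAA.

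FN1 encodes fibronectin, an extracellular matrix glycoprotein that integrins bind (chr2:215360440-215436172, minus strand). Parental cells held 6.75, 8.68 and 10.4 CPM untreated and 12.2, 11.7 and 12.98 CPM treated. SDS22-degron cells held 11.7, 12.3 and 14.0 CPM untreated and 22.7, 27.2 and 25.4 CPM treated. The treated SDS22-degron libraries were the highest and the untreated parental libraries the lowest, and treated parental and untreated SDS22-degron libraries overlapped.

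FN1 was higher in all 4 comparisons: by 0.99 with Dox/IAA in SDS22-degron cells (SE 0.122, edgeR adjusted p = 2.23e-06), 0.51 in parental cells (SE 0.139, adjusted p = 0.00877), 1.03 between treated lines (SE 0.123, adjusted p = 2.41e-06) and 0.55 between untreated lines (SE 0.137, adjusted p = 0.00539). The rise in parental cells was 0.36 and not called (adjusted p = 0.0607) without untreated replicate 1. The interaction of 0.48 was not called (95% CI 0.09 to 0.86, adjusted p = 0.0950), and was called without that same library (0.61, adjusted p = 0.0314) and with the replicate block (adjusted p = 0.0482). Since fibronectin is also made by fibroblasts, the 9 fibroblast markers were summed: 9.96 to 13.9 CPM in untreated and 17.4 to 22.9 CPM in treated parental cells, and 13.8 to 15.8 CPM in untreated and 21.3 to 31.7 CPM in treated SDS22-degron cells. That sum is COL1A1 almost alone (9.88 to 31.7 CPM), while PDGFRA, DCN, LUM, THY1 and COL1A2 had 0 counts in every library. COL3A1, PDGFRB and FAP held at most 4, 3 and 1 counts in a library. Whether fibroblast RNA had a part in the FN1 values was not tested.

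VIM and FN1 are both used as mesenchymal marks, and they moved in opposite directions. Per deposited gene length, FN1 stood at 0.247 to 0.397 times VIM in untreated parental cells and 0.517 to 0.867 times in treated ones. In SDS22-degron cells the ratio was 0.627 to 0.818 untreated and 2.77 to 6.54 treated. By this measure, which rests on the lengths used, fibronectin was the lower of the pair in 9 libraries and the higher in the 3 treated SDS22-degron libraries. The ratio of CDH1 to VIM was 5.34 to 18.1 in untreated and 12.1 to 26.2 in treated parental cells, and 14.0 to 17.5 in untreated and 61.8 to 131 in treated SDS22-degron cells. Treated SDS22-degron libraries lay apart from the other 9, which overlapped.

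**Figure D3:**
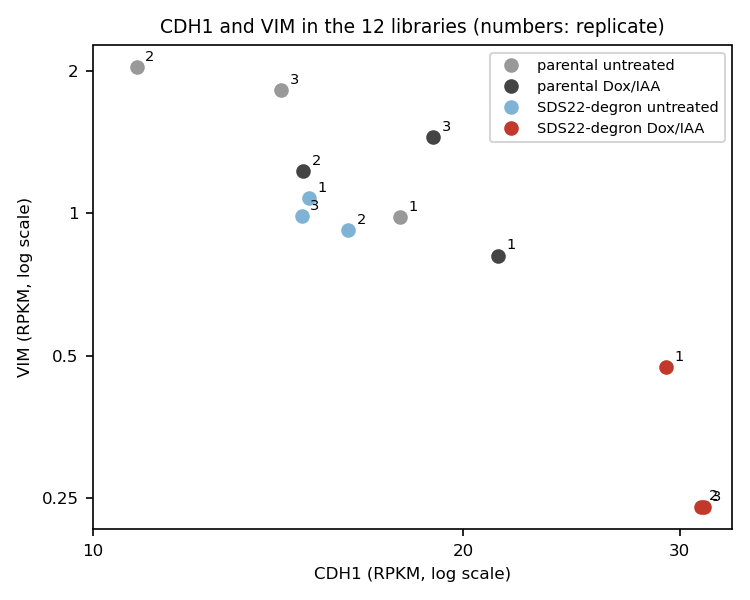
CDH1 against VIM in the 12 libraries, both in RPKM on log axes, coloured by group and numbered by replicate. The 3 treated SDS22-degron libraries lie at the lower right, with CDH1 at 29.2 to 31.4 RPKM and VIM at 0.240 to 0.473 RPKM, apart from the 9 others.

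The bases before the annotated starts of this pair are shown because the 2 genes responded in opposite directions. Each is the 250 bases upstream of the start from RefSeq on GRCh38.p14, read on the gene's own strand, and capitals mark matches to any of 3 motifs searched on both strands: the E-box CAGGTG that SNAI and ZEB repressors bind, the cyclic AMP response element TGACGTCA and the AP-1 site TGANTCA, which do not overlap each other here. FN1 lies at chr2:215436069-215436318 on the minus strand and VIM at chr10:17227991-17228240 on the plus strand.
FN1: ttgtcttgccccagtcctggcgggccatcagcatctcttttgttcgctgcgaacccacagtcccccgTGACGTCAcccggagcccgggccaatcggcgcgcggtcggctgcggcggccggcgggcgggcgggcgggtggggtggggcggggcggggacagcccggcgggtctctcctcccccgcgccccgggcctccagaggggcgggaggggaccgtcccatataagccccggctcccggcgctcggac
VIM: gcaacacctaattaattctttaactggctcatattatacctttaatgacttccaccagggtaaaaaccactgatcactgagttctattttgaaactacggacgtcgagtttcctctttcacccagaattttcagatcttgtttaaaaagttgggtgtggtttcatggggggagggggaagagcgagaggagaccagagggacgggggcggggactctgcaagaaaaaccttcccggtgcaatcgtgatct
The FN1 window held 1 response element, 183 bases before the start, a motif present in 1.65% of the 35116 human windows of this length. The VIM window held none of the 3 motifs. E-boxes of this form were in 17.5% and AP-1 sites in 6.57% of all windows. A match is a run of letters only, and nothing about binding was measured.

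ZEB1 encodes a zinc finger repressor of CDH1 and other epithelial genes (chr10:31318495-31529814, plus strand). It was low, at 51 to 133 counts per library. Parental cells held 7.26, 10.4 and 7.17 CPM untreated and 6.45, 7.90 and 8.57 CPM treated. SDS22-degron cells held 6.42, 6.67 and 6.30 CPM untreated and 5.64, 4.18 and 4.20 CPM treated. Treated SDS22-degron libraries were the 3 lowest of the 12, and the parental groups overlapped.

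ZEB1 was lower in treated SDS22-degron than in treated parental cells, by a log2 fold change of -0.70 (SE 0.177, edgeR adjusted p = 0.00340), a call that held under each alternative. Within SDS22-degron cells it fell by 0.46 (SE 0.180, adjusted p = 0.0382), and this was not called when any single untreated replicate or treated replicate 2 or 3 was left out (adjusted p 0.0592 to 0.126), nor in DESeq2 (0.0548) or with library size alone (0.0613). In parental cells the value was -0.12 (95% CI -0.46 to 0.22, adjusted p = 0.615), and it was 0.08 without untreated replicate 2. The untreated lines differed by -0.36 (adjusted p = 0.117), and the interaction was -0.34 (adjusted p = 0.383), neither of them called. The antisense gene ZEB1-AS1 (407 counts in all, 38.8% of those of ZEB1) was called in no comparison, and a pseudogene on the same strand, SPTLC1P1, held 314 counts.

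The bases before the first annotated start of ZEB1 (chr10:31318167-31318416, plus strand) and of TJP1 (chr15:29969050-29969299, minus strand) are shown since each held the E-box that the repressors named here bind, again from RefSeq on GRCh38.p14 with the match in capitals.
ZEB1: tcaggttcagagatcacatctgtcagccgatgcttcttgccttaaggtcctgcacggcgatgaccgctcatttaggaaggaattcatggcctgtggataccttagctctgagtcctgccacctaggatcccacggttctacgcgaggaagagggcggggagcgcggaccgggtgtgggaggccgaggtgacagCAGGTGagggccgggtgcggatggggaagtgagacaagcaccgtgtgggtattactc
TJP1: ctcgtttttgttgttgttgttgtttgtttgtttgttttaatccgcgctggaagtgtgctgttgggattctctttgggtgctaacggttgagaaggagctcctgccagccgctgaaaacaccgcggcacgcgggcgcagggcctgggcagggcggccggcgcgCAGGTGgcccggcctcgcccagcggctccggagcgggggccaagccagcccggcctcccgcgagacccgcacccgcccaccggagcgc
The E-box was 57 bases before the start in ZEB1 and 88 bases before it in TJP1. ZEB1 has 7 annotated starts in this set and TJP1 has 4, and these windows were picked because they held the motif. The window of the third ZEB1 start held E-boxes 242 and 85 bases before it, and the remaining windows of both genes held none. A gene with several windows has more chances of a match than the share per window gives. Among the members, windows were matched for CDH2, FN1, TJP1, VIM and ZEB1, and sequences of CDH1, EPCAM, FERMT1, SNAI1 and SNAI2 were not used here.

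SNAI1 encodes Snail, the zinc finger repressor that opens many forms of the transition (chr20:49982999-49988886, plus strand). Parental cells held 8.53, 9.15 and 12.0 CPM untreated and 11.1, 12.1 and 11.6 CPM treated. SDS22-degron cells held 12.8, 11.3 and 13.4 CPM untreated and 7.78, 9.91 and 9.88 CPM treated. The direction of the mean was up with treatment in parental cells and down in SDS22-degron cells, where the 2 groups did not overlap.

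The fall in SDS22-degron cells was -0.44 (SE 0.137, edgeR adjusted p = 0.0118), and -0.33 without treated replicate 1 (adjusted p = 0.0695). The value in parental cells was 0.23 (95% CI -0.06 to 0.52, adjusted p = 0.222), and 0.39 without untreated replicate 3 (adjusted p = 0.0494). The interaction, -0.67 (SE 0.194, adjusted p = 0.0272), kept its sign without each library, and missed the threshold without untreated parental replicate 1, treated parental replicate 2, untreated SDS22-degron replicate 1 or 3, or treated SDS22-degron replicate 1 (adjusted p 0.0536 to 0.0713). With the replicate block the interaction was called (edgeR adjusted p = 0.0115). Between lines, SNAI1 differed by -0.34 when treated (adjusted p = 0.0551) and by 0.33 when untreated (adjusted p = 0.0778), neither of them called. With the replicate block both were called (adjusted p = 0.0331 and 0.0440). The difference between treated lines was also called with the likelihood ratio test (adjusted p = 0.0412). So it was without the filter (0.0421) and with the GC correction (0.0359). The difference between untreated lines was also called without untreated parental replicate 3 (0.51, adjusted p = 0.0137).

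SNAI2 encodes Slug, the close relative of Snail (chr8:48917768-48921740, minus strand). It held 1, 5 and 1 counts in untreated and 8, 10 and 9 in treated parental libraries, and 11, 14 and 10 in untreated and 20, 15 and 15 in treated SDS22-degron libraries. It passed the filter on low counts through 6 libraries, and the treated SDS22-degron group, where it was highest, was the only group with all 3 above it. Its level was at most 1.53 CPM, and the untreated parental libraries were the lowest of the 12.

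Summed over 3 libraries and corrected for library size, SNAI2 in untreated SDS22-degron cells was 4.44 times that in untreated parental cells (35 against 7 counts, exact 95% interval 1.94 to 11.8). Treated parental cells held 3.66 times the untreated parental level (27 against 7 counts, 1.56 to 9.97). These intervals cover counting error only. Both differences were called (edgeR adjusted p = 0.00292 and 0.0101). In SDS22-degron cells the ratio of treated to untreated was 1.55 (0.987 to 2.46), not called (adjusted p = 0.10). Between treated lines the ratio was 1.88 (1.15 to 3.12) and was called (adjusted p = 0.0327), but not in DESeq2 (0.114), without the filter (0.0730), or without treated parental replicate 1 or 3 or treated SDS22-degron replicate 1 or 3 (0.0540 to 0.108). The interaction of -1.20 was not called (adjusted p = 0.199, and 0.0436 without untreated parental replicate 2, where it was -2.32). The order across the groups thus differed from that of SNAI1 and ZEB1, whose lowest means were in treated SDS22-degron cells.

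Per deposited gene length, each of the 4 epithelial genes lay above each of the mesenchymal genes and repressors in every library. FERMT1 and SNAI1 were the closest, at 7.96 and 5.86 RPKM in treated SDS22-degron replicate 3. CDH1, TJP1 and FERMT1 were at 7.96 to 31.4 RPKM and EPCAM above 100 RPKM. SNAI1 was at 4.61 to 7.92 RPKM, and VIM, FN1 and ZEB1 were at 0.240 to 2.03 RPKM. The ratio of CDH1 to FERMT1, both of them epithelial, was 0.374 to 0.688 in untreated parental cells, 0.891 to 1.18 in treated parental cells, 0.841 to 0.848 in untreated SDS22-degron cells and 3.15 to 3.94 in treated SDS22-degron cells.

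Genes whose level followed that of CDH1 most closely were TRIM44 (Pearson's r = 0.988 over the 12 libraries), SMPDL3B (0.985) and CERS4 (0.980), of 421 genes with r above 0.9. For VIM they were LIX1L (0.960), CDC25A (0.959) and TAF5 (0.958), of 427 genes. The 12 libraries form 4 groups, and a gene that differs in treated SDS22-degron cells alone gives a high r.

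Other genes of the same junctions were read from lists drawn up by function. These and the further lists below were chosen with earlier results of these data known, so their counts only describe these data. With Dox/IAA in SDS22-degron cells, 8 of 10 tested adherens junction genes rose and 1 fell, with a median log2 fold change of 0.35, against 26.0% of all genes higher, 25.5% lower and a median of 0.0046. JUP, encoding plakoglobin, rose by 1.00 (edgeR adjusted p = 1.02e-07), from 215 to 247 CPM untreated to 437 to 502 CPM treated, beside 290 to 362 and 354 to 449 CPM in parental cells. Of 14 tight junction genes 11 rose and 1 fell, with a median of 0.39. The claudin gene CLDN3 rose by 1.33 (adjusted p = 1.13e-07), from 13.8 to 14.0 CPM to 34.1 to 35.4 CPM. In parental cells CLDN3 rose by 0.46 (edgeR adjusted p = 0.00979), and the interaction was 0.87 (adjusted p = 0.00331). It was lower in SDS22-degron cells between untreated lines (-0.38, adjusted p = 0.0411) and higher between treated ones (0.49, adjusted p = 0.00282). With Dox/IAA in SDS22-degron cells CLDN2 fell by 0.93 (adjusted p = 0.0352) at levels below 3 CPM. This fall was not called in DESeq2 or without untreated replicate 1 or treated replicate 1 or 3, settings where it was -0.66 to -1.02. In parental cells the log2 fold change of CLDN2 was -2.85 (adjusted p = 0.000361). It was higher in treated SDS22-degron than in treated parental cells (2.11, adjusted p = 0.00472), and the interaction of 1.93 was not called (adjusted p = 0.0568). In parental cells 5 adherens genes rose and 1 fell (median 0.21), and 4 tight junction genes rose and 1 fell (median 0.10), against 15.9% of all genes higher and 15.7% lower. The latter count of 4 was 2 without untreated replicate 2 or treated replicate 1. For the interaction, 6 tight junction and 4 adherens genes were called higher, against 6.03% of all genes, and 1 adherens gene, NECTIN3, was called lower (-0.41, edgeR adjusted p = 0.0121), against 8.35%. The adherens count of 4 was 1 or 2 without untreated parental replicate 3, untreated SDS22-degron replicate 1 or 2, or treated SDS22-degron replicate 3.

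The adherens junction list started lower in the untreated SDS22-degron line. For the tight junction list the share called, 28.6%, was near that of all genes. Between untreated lines 6 adherens genes were lower and 1 higher (median -0.27), and 4 tight junction genes were lower and 10 not called (median -0.12), against 2198 genes higher and 2500 lower of the 16657 tested (28.2% in all). The latter count of 4 was 2 without untreated parental replicate 1 or 3 or untreated SDS22-degron replicate 1. Between treated lines 4 adherens genes were higher and 1 lower (median 0.14), and 10 tight junction genes were higher and 1 lower (median 0.26), against 21.8% and 23.1%. JUP was lower by a log2 fold change of -0.50 between untreated lines (edgeR adjusted p = 0.000586) and was not called between treated ones (0.17, adjusted p = 0.158).

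Not all epithelial lists followed CDH1. Of 7 keratin genes none was called higher with Dox/IAA in either line by edgeR or DESeq2. None had an unadjusted p below 0.05 in that direction. Of all genes 26.0% were called higher in SDS22-degron cells and 15.9% in parental cells. In SDS22-degron cells 5 keratin genes fell (71.4%, against 25.5% of all genes, median -0.33). In parental cells 6 fell (85.7%, against 15.7% of all genes, median -0.73). KRT7 fell by 1.31 in SDS22-degron cells (edgeR adjusted p = 3.92e-06), and KRT20, a colonic keratin, fell by 0.95 (adjusted p = 0.000407). In parental cells the log2 fold changes were -1.89 for KRT7 (adjusted p = 1.16e-07) and -0.94 for KRT20 (adjusted p = 0.0104). KRT7 was also lower in the untreated SDS22-degron than in the untreated parental line (-1.29, adjusted p = 2.86e-06), and its interaction of 0.58 was not called. KRT20 and KRT80 were higher in treated SDS22-degron than treated parental cells, by 1.37 and 1.97 (adjusted p = 0.000200 and 1.30e-07), and already so between the untreated lines, by 1.38 and 0.74 (adjusted p = 5.46e-05 and 0.00175). The interaction was -0.0072 for KRT20, not called, and 1.23 for KRT80 (edgeR adjusted p = 0.00232). The keratin count in SDS22-degron cells was 3 without untreated replicate 3. Of 8 desmosome genes 4 rose and 1 fell with Dox/IAA in SDS22-degron cells (median 0.19), against the same 26.0% and 25.5% of all genes, but 2 in all were called without untreated replicate 3, 3 without treated replicate 3 and 3 without the filter on low counts.

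Of 6 epithelial surface proteins and proteases, 5 rose with Dox/IAA in SDS22-degron cells (83.3%, against 26.0% of all genes, median 0.57). In parental cells 3 rose (50%, against 15.9% of all genes, median 0.37). For the interaction 1 was called higher (16.7%, against 6.03%). SPINT1, an inhibitor of surface serine proteases, rose by 1.15 (edgeR adjusted p = 4.91e-09), and CD24 rose by 1.15. In parental cells SPINT1 rose by 0.50 (adjusted p = 0.000161), and CD24 by 0.54, which was not called (adjusted p = 0.0522). Of 13 epithelial transcription and splicing factors 8 rose and 2 fell in SDS22-degron cells (61.5% and 15.4%, against 26.0% and 25.5% of all genes, median 0.49). In parental cells 2 rose and 3 fell (15.4% and 23.1%, against 15.9% and 15.7% of all genes, median 0.028). HNF4A, a factor of intestinal and hepatic epithelium, differed between the lines instead: it was lower, by a log2 fold change of -3.21, in treated SDS22-degron cells (0.741 to 0.992 against 7.27 to 9.68 CPM) and already at 0.304 to 0.729 CPM in untreated ones.

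Among 8 other transcription factors of the transition 4 rose and 1 fell with Dox/IAA in SDS22-degron cells (median 0.42, against 26.0% and 25.5% of all genes), among them SNAI3, which rose by 1.27 at levels of at most 4.03 CPM. TWIST1 was lower, by a log2 fold change of -1.02, in treated SDS22-degron than in treated parental cells, at 0.494 to 2.05 CPM. It was lower already between the untreated lines (-1.32, edgeR adjusted p = 0.00262), and was not called with Dox/IAA in SDS22-degron cells (0.30, adjusted p = 0.501). ZEB2, TWIST2, PRRX1 and GSC were too low to test. Of 11 mesenchymal and matrix genes 3 rose and 4 fell (27.3% and 36.4%, against 26.0% and 25.5% of all genes, median 0.21), so that the share that rose was near that of all genes. ACTA2, smooth muscle actin, rose by 1.1 (edgeR adjusted p = 3.72e-06), whereas the matrix genes SPARC and FBN1 fell, with log2 fold changes of -1.74 and -1.95. Between the untreated lines ACTA2 was already higher in SDS22-degron cells (0.78, edgeR adjusted p = 0.00185). Its rise in parental cells was 0.21, not called, and the interaction was 0.88 (adjusted p = 0.0143). SPARC also fell in parental cells, by a log2 fold change of -3.57, from 6.33 to 11.6 CPM to 0.30 to 1.02 CPM. It was higher in treated SDS22-degron than in treated parental cells (3.29, edgeR adjusted p = 3.72e-07). Between the untreated lines SPARC was already higher in SDS22-degron cells (1.47, adjusted p = 1.12e-05), and the interaction was 1.82 (adjusted p = 0.00614). FBN1 was lower, by a log2 fold change of -1.53, in treated SDS22-degron than in treated parental cells (adjusted p = 0.0123), which was not called without treated parental replicate 2 (-1.0) or treated SDS22-degron replicate 1 (-1.15).

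Neither kindlin relative of FERMT1 was called with Dox/IAA in SDS22-degron cells. FERMT2 was at 53.4 to 54.1 CPM in untreated and 53.7 to 61.6 CPM in treated SDS22-degron cells (log2 fold change 0.12), and FERMT3 at 0.911 to 1.44 and 0.458 to 1.08 CPM (log2 fold change -0.71). In parental cells FERMT2 rose by 0.45 (edgeR adjusted p = 0.000276), and its interaction was -0.33 (adjusted p = 0.0497). FERMT2 was also higher in untreated SDS22-degron than in untreated parental cells (0.51, adjusted p = 7.99e-05). FERMT3 was called in none of these comparisons. With Dox/IAA in SDS22-degron cells, 4 of the 12 kindlin and focal adhesion genes rose (33.3%, against 26.0% of all genes, median 0.12). None fell in edgeR or DESeq2 over all libraries, nor at an unadjusted p below 0.05. Without treated replicate 2, 1 was called lower, FERMT3 (-1.11, edgeR adjusted p = 0.0469). Of 6 intermediate filament genes related to VIM, 3 rose and 2 fell (50.0% and 33.3%, against 26.0% and 25.5% of all genes, median 0.020). LMNB1, the nuclear lamin B1 gene, fell by 1.20 (edgeR adjusted p = 1.56e-08), from 160 to 164 CPM to 64.3 to 80.8 CPM, and was at 148 to 185 CPM in treated parental cells.

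**Figure D4:**
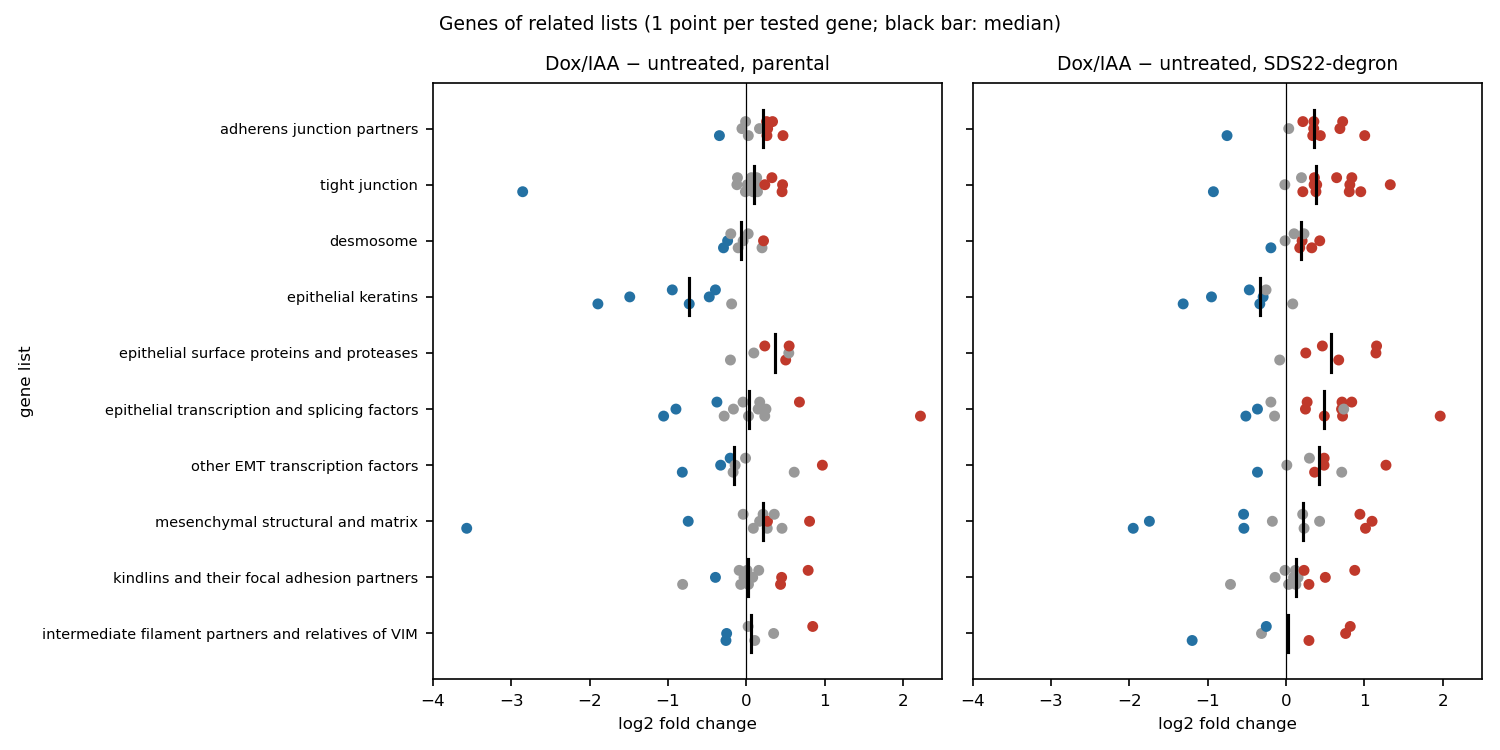
Log2 fold changes with Dox/IAA in parental cells (left) and SDS22-degron cells (right) for the tested genes of 10 related lists, a point per gene in red where called higher, blue where called lower and grey otherwise, with a black bar at each list's median. The medians of the adherens and tight junction lists are 0.35 and 0.39 in SDS22-degron cells against 0.21 and 0.10 in parental cells, and the keratin median is below 0 in both.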

How the data were processed

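Bulk RNA was measured in 12 libraries, in 4 groups of 3 taken from the sample labels. The authors deposited raw counts per gene from stranded poly-A libraries, together with positions, length and GC percent of each gene. The submitters' processing notes name cutadapt 1.15, Bowtie2 2.3.3.1, STAR 2.5.2b, SAMtools 1.5, featureCounts 1.5.3 and GRCh38, and the annotation release and the counting's strand setting are not given in the sources used here. Totals of 12133915 to 14657508 counts leave genes of a few counts imprecise.

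Counts were analysed in R 4.3.3 with edgeR 4.0.16. Genes were filtered with filterByExpr (minimum count 10), normalized by TMM and fitted with a mean for each group over all libraries. Each of 5 comparisons, the interaction among them, was tested two-sided by the quasi-likelihood test with Benjamini-Hochberg adjustment over 16657 genes, and called at an adjusted p below 0.05. CPM used the library sizes of the filtered genes, and RPKM divided CPM by the deposited gene length. The fits were tested on simulated data. By their deviations from group means, same-numbered libraries paired (every correlation over 0.1) with Dox/IAA in parental cells (0.12 to 0.25) and between treated lines (0.10 to 0.14), but not between untreated lines (0.058 to 0.12) or in SDS22-degron cells (-0.0093 to 0.095). The labels do not say what a number shares.

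The members and the 10 lists were chosen with earlier results of these data known. A gene of the list of surface proteins is not reported here and was left out of its counts. Besides the members, the text names up to 3 genes of each list with an adjusted p below 0.05 and an absolute log2 fold change above 1, for Dox/IAA in SDS22-degron cells or between treated lines, at a mean of at least 1 CPM, and the 3 genes most correlated with CDH1 and with VIM. ZEB2, TWIST2, PRRX1, GSC, FERMT2, FERMT3, NECTIN3 and the overlapping genes were named after their values were seen. The alternatives tried were DESeq2 1.42.0, the likelihood ratio test, other normalizations and filters, fits of only the groups compared, a GC correction, a replicate block, the study's cut-off and leaving out each library. Applying them to the lists was decided after the data were seen. Promoter sequence came from RefSeq (GRCh38.p14), matched by symbol for 5 of 10 members.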

Additional observations from a re-analysis of the deposited data

Results flagged for a closer look

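The response to Dox/IAA differed between the lines for 3 of the 9 tested members by the interaction test of edgeR, which called 14.4% of all genes. CDH1 rose more in SDS22-degron than in parental cells (interaction 0.64 on the log2 scale, SE 0.187, adjusted p = 0.0290). FERMT1 fell more (interaction -0.33, SE 0.109, adjusted p = 0.0484). SNAI1 had an interaction of -0.67 (SE 0.194, adjusted p = 0.0272), with log2 fold changes of -0.44 in SDS22-degron and 0.23 in parental cells, the latter not called. Each missed the threshold when any of several single libraries was left out, with adjusted p up to 0.0901 for CDH1, 0.120 for FERMT1 and 0.0713 for SNAI1. All were called with the replicate number as a block (edgeR adjusted p = 0.00937 for CDH1, 0.0333 for FERMT1 and 0.0115 for SNAI1). The labels do not state such a pairing. Groups of 3 libraries are too small for a check of single outlying libraries.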

How the results depend on the processing

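Of 810 values of the 9 tested members under alternatives, over 45 results, 710 kept direction and side of the threshold, 62 kept direction but were no longer called, 25 became called and 13 changed sign. The cause of these changes was not tested. Under the study's cut-off the members called were 2 between treated lines, 1 between untreated lines, 2 and 1 with Dox/IAA in SDS22-degron and parental cells and 1 (VIM) for the interaction, and all genes called were 1105, 689, 1305, 523 and 600. With only the groups compared, 3 members were called in parental cells. Of 18 same-number correlations of deviations 7 were over 0.1 (-0.057 to 0.25). Averaged over the other groups, all 12 libraries correlated best with their own number. The fit with the replicate number as a block called 7 members between treated lines (SNAI1 added), 6 between untreated lines (SNAI1 added), 7 and 5 with Dox/IAA in SDS22-degron and parental cells and 6 members for the interaction, and 6 with a GC correction as well. The shares of all genes called in these fits are not given here, so their member counts do not set the members apart. Without each library in turn, members called were 5 to 6 between treated lines, 3 to 4 between untreated lines, 6 with Dox/IAA in SDS22-degron cells, 3 to 5 in parental cells and 0 to 5 for the interaction. All genes called were then 6480 to 6953, 3501 to 4322, 7476 to 8039, 3938 to 5211 and 1698 to 2963, in the same order.

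Signs changed for values near 0. EPCAM with Dox/IAA in SDS22-degron cells was 0.0090 in DESeq2 and with its size factors, 0.040 with library size alone, 0.020 with the upper quartile, 0.00076 with the filter of 1 CPM, 0.011 with the GC correction, alone or with the replicate block, and -0.035 to 0.0054 without each library. Between untreated lines EPCAM was 0.0055 with the upper quartile and -0.044 to 0.0079 without each library, and CDH1 was -0.044 to 0.30. ZEB1 with Dox/IAA in parental cells was -0.22 to 0.084 without each library. For CDH1 and ZEB1 the sign changed without untreated parental replicate 2. Depth left CDH2 undetected, and SNAI2, at 1 to 20 counts per library, imprecise.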
